A study of Mus musculus with 4 samples.

Results

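The genes described here make cholesterol and long-chain fatty acids. A list of 32 was set by name: 18 of the sterol branch, 9 of the fatty acid branch and 5 regulators of the SREBP transcription factors. Of these, 29 could be measured, out of 22180 genes tested on the arrays, through probe sets (groups of probes read as 1 value) that name a single gene. Each gene is given by its probe set of highest mean over all arrays. Idi1 and Scd2 were covered only by probe sets naming several genes, and Acat2 had no probe set in the annotation used, so no expression value is given for these 3. That leaves 16 sterol genes, 8 fatty acid genes and 5 regulators.

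The RNA was that of LSK cells, bone marrow cells sorted as negative for lineage markers and positive for Sca1 and c-Kit, a fraction rich in stem cells and multipotent progenitors. After lysis of red cells, the cells were sorted from male mice aged 8 weeks, with 2 samples from wild-type mice (WT) and 2 from SRC-3 knockout mice (KO), and each sample was run on 1 Affymetrix array. The Ncoa3 gene encodes SRC-3, which nuclear receptors and other transcription factors recruit to activate genes. The sources used here do not give the allele, the mouse strain or the number of mice per sample. The labels name biological replicates, but if samples of a group shared mice, the p-values cover the spread of these arrays alone, which may then be technical. Because each sample is a mixture of cells, fewer cells of a type and less RNA per cell cannot be told apart.

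Cholesterol is built from acetyl-CoA through mevalonate, isoprenoids, squalene and lanosterol, and the isoprenoid intermediates also serve protein prenylation and other products. Fatty acids are built from the same acetyl-CoA by a carboxylase and a synthase, then lengthened by elongases and given double bonds by desaturases. SREBP-2, encoded by Srebf2, mainly activates the sterol genes, and SREBP-1, encoded by Srebf1, mainly the fatty acid genes. Both are held in the endoplasmic reticulum with the escort protein Scap by the Insig proteins when sterols are plentiful.

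Ncoa3 was at 7.76 and 7.05 in WT and at 5.35 and 5.09 in KO (log2 level), a difference of -2.19 ± 0.27 (SE, limma adjusted p = 0.038), so the labels and the targeted gene matched. The WT arrays differed more from each other (SD of the log2 difference over genes 0.382) than the KO arrays did (0.279). Of the sorting markers, Kit was bright on every array and Ly6a was not measured. Cd34, a progenitor marker not used in the sort, was bright on every array too. Both had lower means in KO (Kit -0.60, limma adjusted p = 0.25, and Cd34 -0.68, limma adjusted p = 0.085). The largest difference among the 6 measured LSK markers was that of Flt3, at -1.21 (limma adjusted p = 0.11). Both KO arrays lay below both WT arrays for Flt3. Of the 6 measured LSK markers, 4 had a lower mean in KO and 2 a higher one. The T cell marker Cd4 had a mean of 4.54, while the other T cell genes, Cd3e, Cd3d, Cd3g and Cd8a, lay below the median gene (log2 level 4.32). Genes whose mean over all arrays reached that level are called the brighter genes. Over all genes tested 88 rose and 25 fell at an adjusted p under 0.05.

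Sterol synthesis genes had higher mean levels in KO, while fatty acid synthesis genes were spread around no difference. All 16 measured sterol genes had a higher mean in KO, against 49.7% of all genes tested and 54.5% of the brighter genes. Their median difference was 0.42 on the log2 scale, or 1.34-fold, where the median of all genes was -0.0010 and that of the brighter genes 0.04. Only Fdps passed the test: 1 of 16 rose and 0 fell at a limma adjusted p under 0.05, where 0.397% of all genes rose and 0.113% fell. With the unadjusted p under 0.05 as the rule, 5 of 16 (31.3%) had a higher mean and 0 a lower one, where the shares were 10.5% and 6.93% of all genes, and 17.5% of the brighter genes for a higher mean. Both KO arrays lay above both WT arrays for 11 of 16 (68.8%), against 25.1% of all genes and 34.4% of the brighter genes. The list was chosen with earlier results of these data known, so these contrasts are descriptions.

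**Figure D1:**
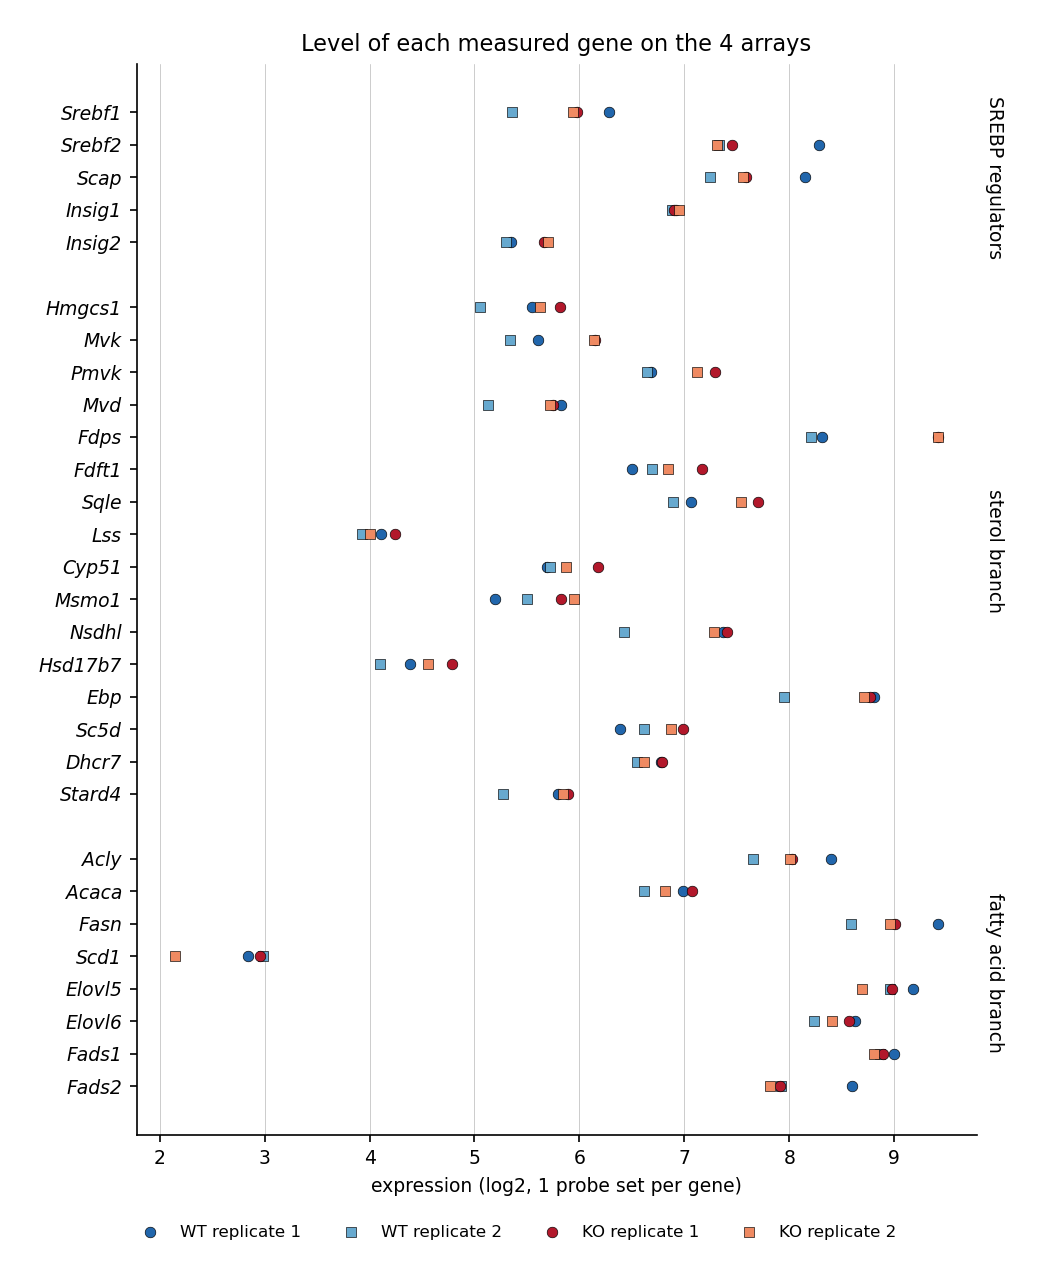
Log2 level of the 29 measured genes on each of the 4 arrays, 1 point per array (WT blue, KO red or orange), grouped by role. Fdps, at 8.32 and 8.21 in WT and 9.42 on both KO arrays, shows the widest gap between the genotypes, and for Srebf2, Scap and Fasn WT replicate 1 lies above the other 3 arrays.

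The early steps of the sterol branch lead to farnesyl diphosphate. Fdps makes that branch-point isoprenoid, the precursor of squalene and of protein prenyl groups. Its level was 8.32 and 8.21 in WT and 9.42 and 9.42 in KO. It rose 2.23-fold, by 1.15 ± 0.15 (SE, limma adjusted p = 0.041), and the genotypes were well separated. Fdps kept a difference of 1.10 to 1.21 with any 1 array left out. Leaving out either WT array lowered its adjusted p, while leaving out either KO array raised it above the threshold. In such fits the lone array is assumed to vary like the arrays of the other genotype. With either WT array left out limma also called far more of all genes than with all 4 arrays. The lower p-values are thus not particular to Fdps. With all 4 arrays and no intensity trend in the fit, its limma adjusted p was 0.0497. With either KO array left out limma called 0 of all genes, with 1471 and 1910 at an unadjusted p under 0.05.

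Mevalonate is phosphorylated in sequence by the kinases Mvk and Pmvk. Mvk was at 5.602 and 5.338 in WT and at 6.15 and 6.14 in KO, a difference of 0.67 ± 0.18 (SE, unadjusted p = 0.0094, limma adjusted p = 0.15). Pmvk was at 6.68 and 6.64 in WT and at 7.29 and 7.12 in KO, a difference of 0.54 ± 0.17 (limma adjusted p = 0.19). For both kinases the KO arrays lay above the WT arrays without overlap, but neither passed the threshold. The same lack of overlap, with KO above WT, held in 25.1% of all genes and 34.4% of the brighter genes. Hmgcs1, which makes HMG-CoA ahead of mevalonate, was at 5.55 and 5.06 in WT and at 5.81 and 5.62 in KO, also without overlap (0.41 ± 0.22, limma adjusted p = 0.41). Its difference was 0.17 without WT replicate 2 and 0.66 without WT replicate 1. The decarboxylase gene Mvd was at 5.82 and 5.13 in WT and at 5.75 and 5.72 in KO, so both KO arrays fell between the WT arrays. Over Hmgcs1, Mvk, Pmvk, Mvd and Fdps the median difference was 0.54.

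The 10 enzymes from squalene to cholesterol had a median difference of 0.42. In 6 of them (60%) both KO arrays lay above both WT arrays, against 25.1% of all genes and 34.4% of the brighter genes. Sqle, the monooxygenase that puts oxygen on squalene and is a rate-controlling step, was at 7.07 and 6.90 in WT and at 7.70 and 7.54 in KO (0.64 ± 0.17, unadjusted p = 0.0090, limma adjusted p = 0.15). Msmo1, which oxidises methyl groups of the sterol ring, was at 5.20 and 5.50 in WT and at 5.82 and 5.95 in KO (0.54 ± 0.19, limma adjusted p = 0.22). Sqle and Msmo1 were the members of these 10 at an unadjusted p under 0.05 (20%). The share with a higher mean at that rule was 10.5% of all genes and 17.5% of the brighter genes. In both Sqle and Msmo1 every KO value exceeded every WT value. Fdft1, the squalene synthase gene, had a difference of 0.41 ± 0.20, Sc5d, a sterol desaturase, 0.42 ± 0.18, Hsd17b7, a ketosteroid reductase, 0.43 ± 0.19, and Cyp51, the lanosterol demethylase, 0.32 ± 0.19 (SE). These 4 did not overlap either, and their limma adjusted p-values ran from 0.30 to 0.45.

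The sterol dehydrogenase gene Nsdhl and the isomerase gene Ebp had wide WT spreads. Nsdhl was at 7.37 and 6.42 in WT and at 7.41 and 7.28 in KO. Ebp was at 8.81 and 7.96 in WT and at 8.77 and 8.72 in KO. In these genes the KO arrays lay near WT replicate 1 and well above WT replicate 2, and the differences of 0.45 ± 0.31 and 0.36 ± 0.28 were within that spread. Lss, the lanosterol synthase gene, and Dhcr7, the reductase of the last step, had the smallest differences of the sterol branch, at 0.10 ± 0.18 and 0.04 ± 0.18. Lss, at a mean of 4.02 in WT, lay below the median gene, where RMA can compress folds. Stard4, which carries cholesterol between membranes, was at 5.80 and 5.27 in WT and at 5.89 and 5.84 in KO (0.33 ± 0.22, limma adjusted p = 0.51). Its difference was 0.07 without WT replicate 2 and 0.60 without WT replicate 1.

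**Figure D2:**
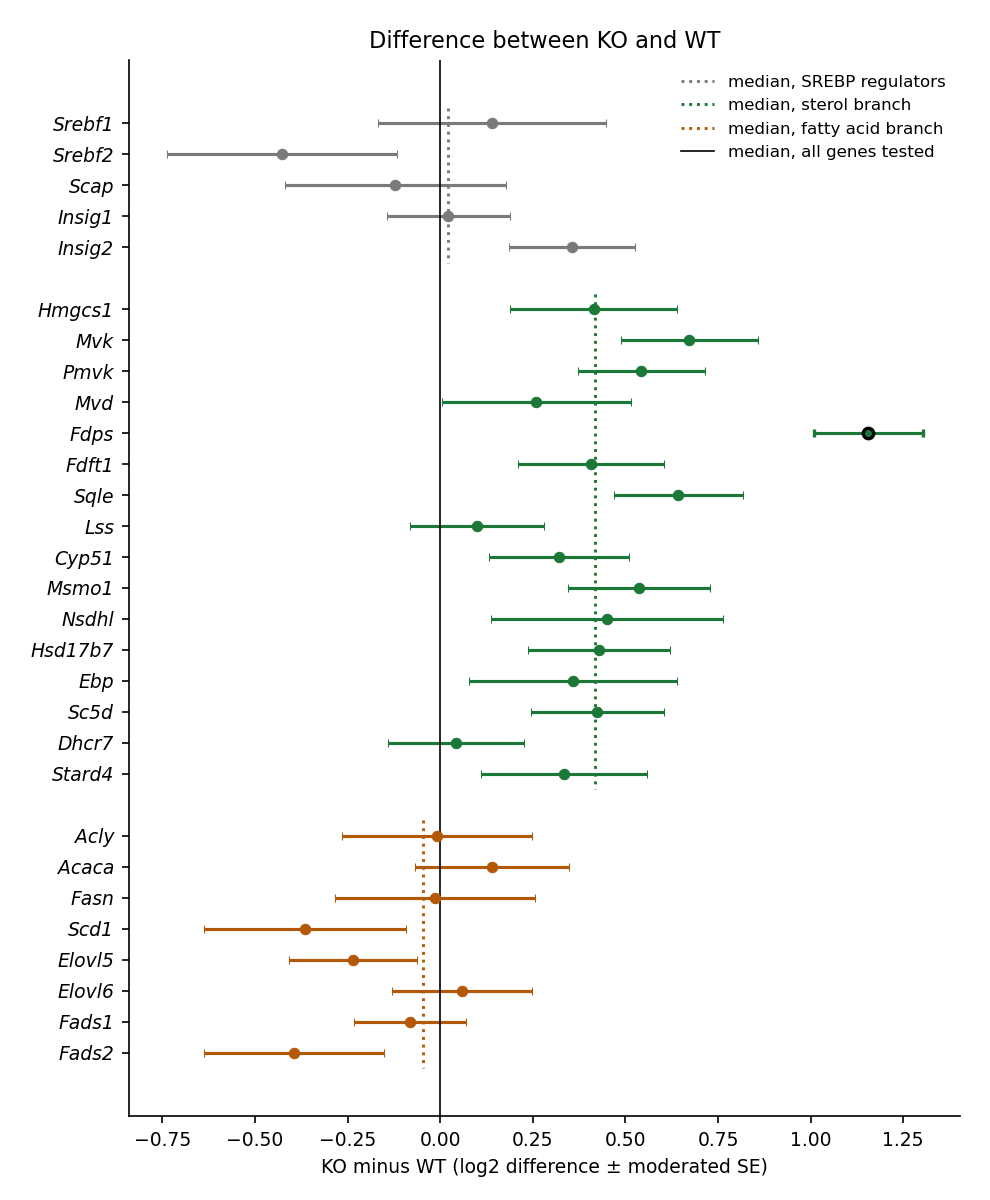
Log2 difference, KO minus WT, of each measured gene with its moderated standard error. Dotted lines mark the median of each group (sterol 0.42, fatty acid -0.05, regulators 0.02), the black line marks the median of all genes tested, and the point with a black rim is Fdps, the member past the adjusted threshold.

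Promoter sequence shows a feature that the choice of members did not use. RefSeq promoter sequences (GRCm38.p6) were matched by symbol for 25 of the 32 genes, and the 250 bases before each start site were searched on both strands for CCAAT, the box bound by NF-Y, for CACGTG, an E-box, and for TCACNCCAC, a sterol regulatory element core. Fdps, Fdft1, Sqle, Stard4, Scd1, Scd2 and Fads1 had no entry. A CCAAT box lay in this window in 13 of 14 sterol genes (92.9%), in 2 of 6 fatty acid genes (33.3%) and in 4 of 5 regulators, against 38.7% of 16918 genes tested on the arrays that had an entry. Genes with several start sites counted once if any window held the motif. The 14 sterol genes include Idi1 and Acat2, which have no expression value here, and among the 12 measured ones all 12 held a CCAAT box. Acat2 was the sterol gene without one, and Elovl5 and Fasn were the fatty acid genes with one. An E-box was found in 3 of 14 sterol genes (Hsd17b7, Dhcr7 and Sc5d), in 1 of 6 fatty acid genes and in 2 of 5 regulators, against 7.85% of genes on the arrays. The sterol element as spelled lay in Hmgcs1 alone among the members, against 1.22% of genes on the arrays. These matches are descriptions of letters and were not tied to binding in these cells.

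The windows of 3 sterol genes and of Fasn are shown because they place the CCAAT boxes in both branches. They are chr5:114444019-114444268 on the plus strand for Mvk, chr8:64733579-64733828 on the minus strand for Msmo1, chr13:119690101-119690350 on the plus strand for Hmgcs1 and chr11:120824548-120824797 on the minus strand for Fasn (GRCm38.p6), each upstream of the annotated transcript. Sequences run 5′ to 3′ on the gene's strand and end at the base before the start. Capitals mark CCAAT or its complement ATTGG and, in Hmgcs1, the sterol regulatory element.
Mvk: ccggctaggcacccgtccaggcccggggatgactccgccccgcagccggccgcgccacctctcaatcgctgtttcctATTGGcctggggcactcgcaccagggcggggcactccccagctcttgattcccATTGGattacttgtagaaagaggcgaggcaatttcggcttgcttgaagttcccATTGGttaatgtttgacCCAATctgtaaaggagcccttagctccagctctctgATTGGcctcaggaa
Msmo1: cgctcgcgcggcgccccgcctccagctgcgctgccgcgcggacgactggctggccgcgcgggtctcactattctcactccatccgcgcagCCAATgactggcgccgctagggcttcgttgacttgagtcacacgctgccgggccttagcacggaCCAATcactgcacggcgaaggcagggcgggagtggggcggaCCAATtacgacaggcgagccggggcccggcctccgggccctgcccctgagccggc
Hmgcs1: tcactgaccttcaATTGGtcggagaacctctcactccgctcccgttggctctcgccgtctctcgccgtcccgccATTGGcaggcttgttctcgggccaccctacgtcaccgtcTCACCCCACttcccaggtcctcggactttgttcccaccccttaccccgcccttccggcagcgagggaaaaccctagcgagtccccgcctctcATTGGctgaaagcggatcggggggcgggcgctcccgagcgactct
Fasn: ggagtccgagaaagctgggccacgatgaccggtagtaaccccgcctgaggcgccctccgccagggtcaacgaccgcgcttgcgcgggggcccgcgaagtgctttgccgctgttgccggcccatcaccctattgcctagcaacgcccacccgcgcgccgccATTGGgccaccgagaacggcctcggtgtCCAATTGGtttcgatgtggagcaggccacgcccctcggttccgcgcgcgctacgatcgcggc

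Mvk held 5 CCAAT boxes, and Msmo1, Hmgcs1 and Fasn held 3 each. In Fasn a pair of boxes on opposite strands overlapped, giving 1 joined run of capitals. In Hmgcs1 the sterol element began 137 bases before the start, between CCAAT boxes that began 176 and 45 bases before it. Mvk and Fasn, which both carry several boxes, had differences of 0.67 ± 0.18 and -0.01 ± 0.27 (SE, KO minus WT). A relation between boxes and expression differences was not tested.

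Fatty acid synthesis genes showed no common shift. Of 8 measured genes, 2 had a higher and 6 a lower mean in KO, with a median difference of -0.05. Limma called 0 of them, beside 0.509% of all genes. At an unadjusted p under 0.05 the count was also 0, beside 10.5% of all genes with a higher mean and 6.93% with a lower one. In a list of 8 genes, counts of 0 lie near these shares. Fasn, the fatty acid synthase, was at 9.41 and 8.59 in WT and at 9.01 and 8.96 in KO, and Acly, which cleaves citrate to acetyl-CoA for both branches, was at 8.397 and 7.660 in WT and at 8.03 and 8.01 in KO. In both genes the KO arrays sat close together between the WT arrays. The 95% interval of the difference ran from -0.66 to 0.63 for Fasn and from -0.63 to 0.61 for Acly. These intervals are not adjusted for the number of genes, so they do not give the change detectable at the adjusted threshold. Mvk, at 0.67 with an SE of 0.18, did not pass it (limma adjusted p = 0.15). The SEs of Fasn and Acly were wider, at 0.27 and 0.26, so changes larger than these intervals could go uncalled. The smallest change that would pass was not tested. The direction for Fasn depended on which WT array was used: it was 0.40 without WT replicate 1 (limma adjusted p = 0.042) and -0.43 without WT replicate 2 (adjusted p = 0.023), and over all alternatives its adjusted p ran from 0.023 to 0.996. Acly was at 0.36 without WT replicate 1 (adjusted p = 0.072) and at -0.38 without WT replicate 2 (adjusted p = 0.044). In these fits the lone WT array is assumed to vary like the KO arrays.

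Acaca, the carboxylase that commits acetyl-CoA to fatty acid synthesis, was at 6.99 and 6.62 in WT and at 7.07 and 6.81 in KO (0.14 ± 0.21, limma adjusted p = 0.80). Among the desaturases, Fads2 was at 8.60 and 7.92 in WT and at 7.91 and 7.81 in KO (-0.39 ± 0.24, limma adjusted p = 0.47). It was the fatty acid gene whose genotypes did not overlap, though only the step from 7.91 to 7.92 parted KO replicate 1 from WT replicate 2. The same count over all genes with KO below WT was 22.9%. Its difference was -0.73 without WT replicate 2 (adjusted p = 0.016) and -0.06 without WT replicate 1 (adjusted p = 0.76), and over all alternatives its adjusted p ran from 0.016 to 0.83. Fads1, its partner in making polyunsaturated fatty acids, was at -0.08 ± 0.15 (SE), with a 95% interval of -0.44 to 0.28.

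The elongase gene Elovl5, which lengthens polyunsaturated chains, was at 9.18 and 8.96 in WT and at 8.98 and 8.69 in KO (-0.24 ± 0.17, limma adjusted p = 0.55), and the genotypes overlapped. Elovl6, which lengthens palmitate, differed by 0.06 ± 0.19 (SE). Scd1, the stearoyl-CoA desaturase gene, lay far below the median gene, at 2.84 and 2.99 in WT and at 2.95 and 2.14 in KO. Its mean difference of -0.37 ± 0.27 came from KO replicate 2 and was 0.04 without that array.

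The genes that control SREBP activity showed no common shift, with a median of 0.02 over 5. Limma called 0 of them, beside 0.509% of all genes. At an unadjusted p under 0.05 the count was also 0, beside 10.5% of all genes with a higher mean and 6.93% with a lower one. In a list of 5 genes, counts of 0 lie near these shares. Srebf2 was at 8.28 and 7.33 in WT and at 7.45 and 7.31 in KO, so WT replicate 1 stood above the other 3 arrays (-0.43 ± 0.31, limma adjusted p = 0.54). Its 95% interval ran from -1.18 to 0.32. Srebf1 was at 6.28 and 5.36 in WT and at 5.97 and 5.94 in KO (0.14 ± 0.31). Scap was at 8.15 and 7.24 in WT and at 7.59 and 7.55 in KO (-0.12 ± 0.30). For Srebf1 and Scap, as for Fasn, the KO values lay between the WT values. Without WT replicate 2 the differences of Srebf2 and Scap were -0.90 (adjusted p = 0.015) and -0.57 (adjusted p = 0.023), and without WT replicate 1 they were 0.05 (adjusted p = 0.85) and 0.33 (adjusted p = 0.11). Over all alternatives the adjusted p ran from 0.015 to 0.85 for Srebf2 and from 0.023 to 0.98 for Scap.

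The Insig genes were measured with little spread. Insig1, itself a target of SREBP-2, was at 6.93 and 6.88 in WT and at 6.90 and 6.95 in KO, a difference of 0.02 ± 0.17 with a 95% interval of -0.38 to 0.42. Insig2 was at 5.35 and 5.30 in WT and at 5.66 and 5.70 in KO, higher without overlap, and its difference of 0.35 ± 0.17 did not pass (unadjusted p = 0.078, limma adjusted p = 0.35).

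The sterol median exceeded the fatty acid median by 0.47 on the log2 scale, and 14 of 16 sterol genes had a larger difference than Acaca, the highest of the 8 fatty acid genes. Averaged per array, the 16 sterol genes were at 6.25 and 6.00 in WT and at 6.63 and 6.51 in KO, so the KO arrays were higher without overlap. The 8 fatty acid genes averaged 7.88 and 7.48 in WT and 7.68 and 7.46 in KO, with overlap. The gap between the branch means within an array, which depends on the probes, was -1.63 and -1.48 in WT and -1.04 and -0.95 in KO, and it shifted by 0.56. The shift was larger than the distance between the arrays of either genotype. It is given without a p-value because the genes were chosen as a list, with earlier results of these data known.

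**Figure D3:**
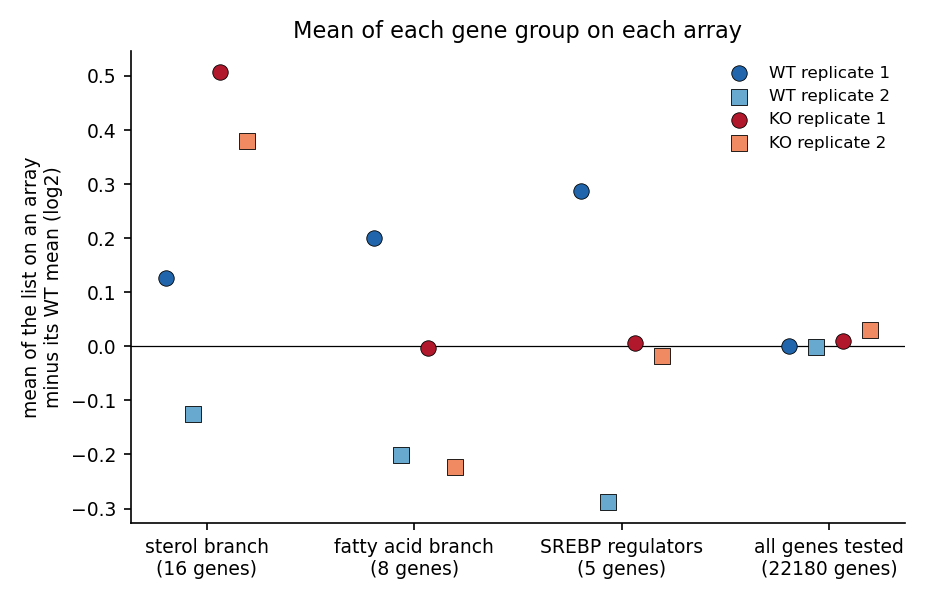
Mean log2 level of each gene group on each array, minus that group's WT mean, with 1 point per array. The sterol branch is higher on both KO arrays than on both WT arrays, while in the fatty acid branch and the regulators WT replicate 1 is the highest array.

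The WT replicates themselves differed in these genes. WT replicate 1 exceeded WT replicate 2 in 24 of 29 genes, with a median gap of 0.26 against 0.09 for the brighter genes and -0.02 for all genes. The gap was widest for Nsdhl and Srebf2 (0.95 each), Srebf1 (0.92), Scap (0.91), Ebp (0.86) and Fasn (0.82), so the wide WT spreads were shared by both branches and the regulators. Between the KO arrays the median gap was 0.11. Both KO arrays lay above WT replicate 2 for all 16 sterol genes, and above WT replicate 1 for 11 of 16, against 38.7% and 39.1% of all genes. Among the 11090 brighter genes these counts were 5896 and 4751. For the 8 fatty acid genes these counts were 4 and 0. Against WT replicate 1 alone the KO mean was higher by a median of 0.31 in the sterol branch and differed by -0.32 in the fatty acid branch. Against WT replicate 2 alone the medians were 0.58 and 0.12. The size of each branch's shift thus depended on the WT array, while the difference between the branch medians was 0.63 without WT replicate 2 and 0.46 without WT replicate 1.

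**Figure D4:**
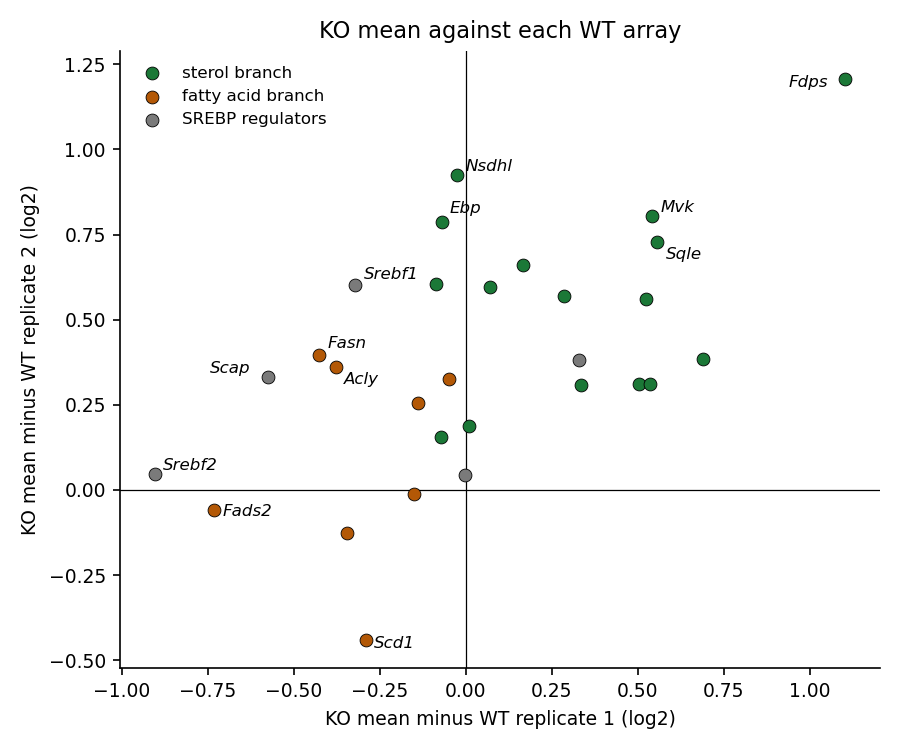
KO mean minus WT replicate 1 (horizontal, log2) against KO mean minus WT replicate 2 (vertical, log2), 1 point per gene. All 16 sterol genes lie above the horizontal line and 12 lie right of the vertical line, while all 8 fatty acid genes lie left of it.

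Other genes of lipid synthesis and sterol handling, listed by function, had a median of 0.08 over 41 measured of 47. Limma called 0 of them at the adjusted threshold, beside 0.509% of all genes. At an unadjusted p under 0.05 a higher mean was seen in 7 (17.1%) and a lower one in 3 (7.32%). The shares were 10.5% and 6.93% of all genes, and 17.5% of the brighter genes for a higher mean. Tmem97, which encodes the sigma-2 receptor and takes part in cholesterol trafficking, was at 6.18 and 5.94 in WT and at 7.34 and 7.18 in KO, 2.30-fold higher on average, with an SE of 0.185 on the log2 scale (limma adjusted p = 0.062). It lay just outside the threshold, and passed it in a fit of the brighter genes (adjusted p = 0.041) and after quantile normalization (adjusted p = 0.041). Over all alternatives its adjusted p ran from 0.015 to 0.73. Acss2, which makes acetyl-CoA from acetate, was at 4.61 and 4.25 in WT and at 5.25 and 5.76 in KO (1.08 ± 0.24, limma adjusted p = 0.11).

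Genes that move cholesterol out of lysosomes and cells gave differences in both directions. Npc1 and Npc2 encode partner proteins that release cholesterol from lysosomes. Npc1 was at 6.24 and 5.92 in WT and at 5.46 and 5.24 in KO (-0.73 ± 0.20, limma adjusted p = 0.15). With the mean of its 2 probe sets the Npc1 difference was smaller, at -0.49 (limma adjusted p = 0.24). Npc2 was at 8.06 and 7.94 in WT and at 8.53 and 8.53 in KO (0.52 ± 0.16, adjusted p = 0.17). Abcg1, a cholesterol exporter, was at 6.80 and 6.35 in WT and at 5.90 and 5.83 in KO (-0.71 ± 0.21, adjusted p = 0.17). The exporter Abca1, named after its values were seen because it works beside Abcg1, was at 5.98 and 5.57 in WT and at 5.21 and 5.10 in KO (-0.62 ± 0.21, adjusted p = 0.20). Genotypes did not overlap in these 4 genes, which were named for small p-values or, for Abca1, after the fact, and none passed the adjusted threshold. Over all 41 genes both KO arrays lay above the WT arrays in 11 and below them in 11 (26.8% each), near the 25.1% and 22.9% of all genes tested.

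On the fatty acid side, Mcat, of mitochondrial fatty acid synthesis, differed by 0.60 ± 0.17, Acsl5, which activates long-chain fatty acids, by 0.68 ± 0.20, and Mlx, a partner of the carbohydrate-responsive factor ChREBP, by 0.75 ± 0.25 (SE, KO minus WT), with limma adjusted p-values of 0.16, 0.17 and 0.20. Without WT replicate 1, where 7.91% of all genes were called, these 3 passed the threshold, with adjusted p-values of 0.046, 0.023 and 0.022. Without WT replicate 2, where 13.5% were called, Acsl5 passed (0.46, adjusted p = 0.045), and Mcat (0.54, adjusted p = 0.051) and Mlx (0.42, adjusted p = 0.066) did not. Over all alternatives their adjusted p-values reached 0.76, 0.77 and 0.76.

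**Figure D5:**
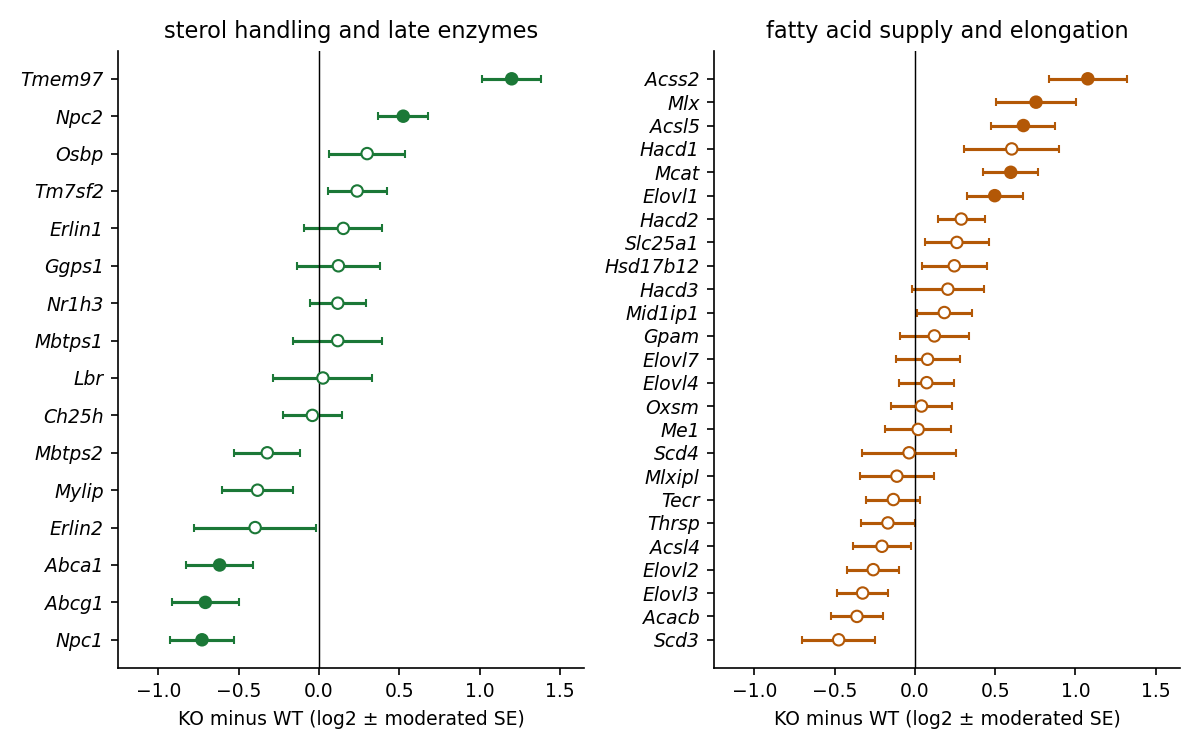
Log2 difference, KO minus WT, with moderated standard error for the 41 other measured genes, 16 of sterol handling (left) and 25 of fatty acid supply and elongation (right). Filled points have an unadjusted p under 0.05. Tmem97 is the highest, at a fold of 2.30, and Npc1, at -0.73, the lowest on the left.

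Levels of other cells' markers are given beside these results. All 6 measured erythroid markers (of 9 listed) were higher in KO, and their summed linear level was 360.0 to 428.7 in WT and 3518 to 3704 in KO. Most of these sums came from Car1, at a log2 level of 7.86 and 8.38 in WT and 11.59 and 11.52 in KO. Limma called 4 of the 6 higher at an adjusted p under 0.05, where 0.397% of all genes rose. Neutrophil markers summed to 205 to 287 in WT and 544 to 562 in KO, with 7 of 8 higher, while Ly6g, Mmp8 and Retnlg lay below the median gene. Macrophage and dendritic markers summed to 513 to 639.7 in WT and 887 to 933 in KO. Of these 8 markers 4 were higher, and the median difference was 0.04. Among the higher ones, H2-Aa rose by 1.73 (log2, limma adjusted p = 0.023) and H2-Eb1 by 1.48 (limma adjusted p = 0.034), both encoding antigen-presenting chains. Cd68 (-0.26), Itgax (-0.13), Mrc1 (-0.15) and C1qa (-0.08) had lower means in KO. B cell markers summed to 210.0 to 222 in WT and 226 to 227 in KO, with 2 of 5 higher, and Ebf1 was at -0.84 (KO minus WT, limma adjusted p = 0.16). T cell markers summed to 50.9 to 61.3 in WT and 52.0 to 53.1 in KO. The LSK markers summed to 4873 to 5473 in WT and 3955 to 4080 in KO, with 2 of 6 higher. The cycling genes summed to 5151 to 5903 in WT and 5554 to 5705 in KO, and these sums overlapped. Of 6 measured, 4 had a higher mean in KO, among them Cdk1 (0.52) and Birc5 (0.45). The 2 lower ones were Mki67 (-0.36) and Top2a (-0.06), and limma called 0 of the 6, beside 0.509% of all genes. All 7 adipocyte and stromal markers, Adipoq and Plin1 among them, lay below the median gene, at sums of 65.4 to 76.1 in WT and 57.5 to 73.1 in KO. The part of these cell markers in the sterol gene levels was not tested.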

How the data were processed

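Total RNA of 4 LSK samples was hybridised to Affymetrix arrays, 1 array per sample. The authors deposited log2 expression values for 41345 probe sets, and per the submitters' processing notes RMA and Affymetrix Expression Console 1.2.1 were used. The sources used here give neither settings nor a genome build. The log2 scale was taken from the values (0.375 to 12.8). Sequencing depth does not apply, and 2 arrays per group limit the precision.

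Platform annotation named 1 gene for 23521 probe sets and several for 1814, and did not list 16010. Per gene the probe set of highest mean was kept. All 29 measured members matched RefSeq by gene identifier. KO and WT were compared over 22180 genes in limma 3.58.1 (R 4.3.3), with eBayes and an intensity trend, two-sided, Benjamini-Hochberg adjusted over all genes, threshold 0.05. SEs are moderated. Intervals at 95% use the moderated degrees of freedom. The model was tested on simulated data. Lists are described by counts and medians only.

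Any member could be named, with every array's value for members past the threshold, for the 4 of smallest p in each role group and for the regulators. Of the other genes, up to 8 of smallest p were named. Members and lists were chosen with earlier results of these data known. Alternatives were a block for the replicate number, averaged probe sets, a fit of genes at or above the median level, quantile normalization, no trend, each array left out, and lists without Stard4 or Acly.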

Additional observations from a re-analysis of the deposited data

How the results depend on the processing

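The direction of the sterol shift held under every alternative tried, with a median of 0.31 to 0.58 when 1 array was left out, 0.45 after quantile normalization and 0.42 in a fit of the brighter genes or without Stard4. The sterol minus fatty acid difference was 0.41 to 0.63 with 1 array left out, 0.55 after quantile normalization and 0.51 without Stard4 and Acly. Medians of the fatty acid genes (-0.32 to 0.12) and of the regulators (-0.32 to 0.33) changed sign with the array left out. That of the other lipid genes ran from -0.01 to 0.17, in fits added after seeing the data. The number of members called was 0 to 7 with 1 array left out, and the number of all genes 0 to 3002. Without WT replicate 1, where 7.91% of all genes were called, the 6 members called were Ebp, Fasn, Fdps, Mvk, Nsdhl and Sqle, all higher, and without WT replicate 2, where 13.5% of all genes were called, the 7 were Fdps and Sqle, higher, and Acly, Fads2, Fasn, Scap and Srebf2, lower. All genes called numbered 289 in the fit of the brighter genes, where fewer were tested, and 189 after quantile normalization; the cause of the latter was not tested. With the replicate number as a block 0 members passed (Fdps adjusted p = 0.066) and 111 of all genes did. Same-numbered arrays deviated together only weakly (r = 0.11 over genes, from 1 pair of differences), so the numbers were not taken as pairs.

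Signs of small differences turned with the array left out, over ranges of -0.32 to 0.60 for Srebf1, -0.90 to 0.046 for Srebf2, -0.57 to 0.33 for Scap, -0.0013 to 0.044 for Insig1, -0.085 to 0.60 for Mvd, -0.019 to 0.22 for Lss, -0.025 to 0.92 for Nsdhl, -0.070 to 0.79 for Ebp, -0.071 to 0.15 for Dhcr7, -0.38 to 0.36 for Acly, -0.048 to 0.33 for Acaca, -0.43 to 0.40 for Fasn, -0.77 to 0.039 for Scd1 and -0.14 to 0.25 for Elovl6. Scap was at 0.017 with the mean of its 2 probe sets. Of 358 values of single named genes under an alternative, 20 changed sign. That total includes alternatives that could not turn a sign. The block, the fit without trend and the fit of the brighter genes leave each gene's difference as it was. Averaging changes it only for genes with several probe sets. Apart from Scap with averaged probe sets, every change of sign came from leaving out an array. Without detection calls, dim genes such as Scd1 and Lss cannot be called absent.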
